A study of Drosophila melanogaster with 87 samples.

Results

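Hsp68 and 6 Hsc70 genes (Hsc70-1, Hsc70-2, Hsc70-3, Hsc70-4, Hsc70-5 and Hsc70Cb) were followed across all libraries of a fly heat shock (HS) experiment. These 7 of the 17562 genes in the count table were grouped by family, inducible Hsp68 beside its constitutive relatives. The reference annotation lists Hsc70Cb as Hsp110, and the other 6 were matched by symbol.

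Chaperones of the Hsp70 class bind exposed stretches of unfolded proteins and let go of them in a cycle of ATP binding and hydrolysis, which J-domain proteins start and nucleotide exchange factors end. Hsp68 is a cytosolic member whose gene is switched on by heat through Hsf, the heat shock transcription factor, like the 6 nearly identical Hsp70 copies of the fly. Hsc70-4 is the main constitutive form of the cytosol, Hsc70-3 the form of the endoplasmic reticulum (ER, the BiP of mammals) and Hsc70-5 that of mitochondria. Hsc70Cb belongs to the Hsp110 branch, which acts as exchange factor for the others, and Hsc70-1 and Hsc70-2 are cognates of low expression.

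RNA was sequenced from brains and heads of male flies that were collected 1 to 2 days after eclosion. That is the age at collection and not at HS or dissection, since the flies were aged further before the stress experiments. All carried the ubiquitous driver DaGal4, reared at 25 °C, with an RNAi line against Mettl3 (the catalytic subunit of the m6A methyltransferase), an RNAi line against Ythdc (the table's Ythdc1, a nuclear reader of m6A) or, as control, mCherry RNAi. Brains of the Mettl3 experiment (35 libraries) were taken in basal conditions or after 30 min HS at 38.5 °C (6 Mettl3 RNAi and 6 control each), or 6 h (3 Mettl3 RNAi, 2 control) and 24 h (3 and 3) after that HS. The Ythdc experiment had 3 basal and 3 HS brain libraries of each genotype, 12 in all. From pools of 200 heads per sample, in basal conditions or after 30 min HS, an m6A immunoprecipitation (IP) and an input library were made per pool, with the Synaptic Systems (SYS) antibody on 2 pools per group or the New England Biolabs (NEB) antibody on 3. Both RNAi lines act throughout the body and reduce the target without removing it, and a brain library pools several animals.

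In brains, Mettl3 averaged 0.803 CPM (counts per 1e6) in basal Mettl3 RNAi, against 2.66 CPM in control, and 0.237 CPM after HS, against 1.94 CPM in control. Ythdc1 averaged 33 CPM in basal Ythdc RNAi brains and 151 CPM in control brains, and 22 CPM against 203 CPM after HS. Library totals in counts were 19.4 to 47.6 × 1e6 in brains of the Mettl3 experiment, 33.9 to 65.9 × 1e6 in the Ythdc experiment, 12.2 to 17.7 × 1e6 in head inputs and 1.32 to 19.6 × 1e6 in m6A-IPs. All 5 neuronal markers checked were above 1 CPM in heads and brains, and their sum was 2950 to 5950 CPM in head inputs and 3850 to 10400 CPM in brains. The 4 retina markers summed to 11200 to 16500 CPM in head inputs and to 13400 to 56500 CPM in brains, so that RNA of the retina was present in the brain libraries as well. CPM were scaled separately in brains of the Mettl3 experiment, brains of the Ythdc experiment and head libraries of each antibody experiment. Levels in heads and brains are therefore not on a common scale. In these bulk libraries, fewer cells of a type and less RNA per cell cannot be told apart.

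Certain basal libraries stood apart for Hsp68 and the Hsp70 copies. Basal Mettl3 RNAi brains 1 and 3 had 86.9 and 66.4 CPM of Hsp68 and a summed Hsp70 level of 1520 and 722 CPM, against 8.79 to 16.3 CPM and 106 to 221 CPM in the other 4 Mettl3 RNAi brains and 6.41 to 9.7 CPM and 85.3 to 100 CPM in control brains. The same 2 libraries had 89 and 63 CPM of the small heat shock protein gene Hsp26, where control brains had 4.34 to 6.92 CPM. All 4 muscle markers were above 1 CPM in each group, and their sum was 159 to 861 CPM in these 2 libraries, 27.3 to 132 CPM in the other 4 Mettl3 RNAi brains and 37.4 to 253 CPM in control brains. The retina markers summed to 17400 to 18900 CPM in the 2 libraries, 25400 to 39600 CPM in the other 4 and 19500 to 31400 CPM in control brains. Glia markers summed to 2570 to 2730 CPM in the 2 libraries, above the other 4 (1660 to 2200 CPM) and control brains (1960 to 2400 CPM). The neuronal and fat body sums of the 2 libraries overlapped those of control brains. In heads, both basal Mettl3 RNAi SYS inputs were high, with 133 and 215 CPM of Hsp68, against 17.3 and 33.8 CPM in control SYS inputs. The part of dissection, handling or tissue content in these levels was not tested. Brain results that rest on basal Mettl3 RNAi brains 1 and 3 are also given without them, an alternative chosen after seeing the data, and Hsp68 in head inputs also for the NEB inputs alone.

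Hsp68 (FBgn0001230) is a single exon of 2231 bases on the minus strand of chromosome arm 3R at 24055080 to 24057310 in dm6. Only 13 bases at an end overlap exons of other genes, which are CG6000 and lncRNA:CR44097 on the other strand. Hsc70-4 (FBgn0266599) lies on the plus strand of 3R at 15242687 to 15246614, Hsc70-3 (FBgn0001218) on the minus strand of X at 11801696 to 11807117, Hsc70-2 (FBgn0001217) on the plus strand of 3R at 13044759 to 13047388, and Hsc70-1 (FBgn0001216) and Hsc70Cb (FBgn0026418) on the plus strand of 3L at 13974061 to 13977761 and 14037019 to 14043686. These 5 genes have 2 to 6 exon blocks, and no annotated exon of another gene overlaps these blocks. Genes within introns were not looked for.

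Hsf binds heat shock elements, which are runs of the unit GAA and its complement TTC in alternation, 2 bases apart. The window of 250 bases before to 50 bases after the most upstream annotated start was searched on both strands for the pairs GAANNTTC and TTCNNGAA, which can overlap within a run. Windows of the same size at the later annotated starts were searched for runs of 3 units. The matches in Hsp68, Hsc70-4, Hsc70-3 and Hsc70Cb are shown with the element that all 6 Hsp70 copies share, because they are the members that were called after HS in control brains. Units are in capitals, each sequence reads 5′ to 3′ on the strand of its gene, and the reference is Release 6 (dm6).
Hsp68, chr3R:24057467-24057495 (minus strand): tatTTCtcGAAatTTCctGAActTTCagt
Hsp68, chr3R:24057386-24057399 (minus strand): ctgGAAtgTTCtga
Hsp68, chr3R:24057353-24057366 (minus strand): ctcGAAttTTCccc
Hsc70-4, chr3R:15242948-15242966 (plus strand): ggtTTCtcGAActTTCgac
Hsc70-4, chr3R:15242527-15242540 (plus strand): tgtGAAcgTTCtgc
Hsc70-3, chrX:11807187-11807200 (minus strand): tgtTTCtaGAAaac
Hsc70Cb, chr3L:14036908-14036921 (plus strand): ttgGAAtcTTCtaa
Hsp70Aa, chr3R:11956585-11956603 (minus strand): ctcGAAtgTTCgcGAAaag

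The longest run, 5 alternating units, lies 182 to 160 bases before the Hsp68 start, and pairs follow at 86 to 79 and 53 to 46 bases. The run of 3 units at Hsc70-4 lies downstream of its first start, 205 to 193 bases before 1 and 247 to 235 bases before another of its 6 annotated starts. The single pairs of Hsc70-4, Hsc70-3 and Hsc70Cb lie 157 to 150, 80 to 73 and 108 to 101 bases before the first start. Hsc70-2 has 1 pair just after its start, and neither Hsc70-1 nor the mitochondrial member has a pair in its window. Among the windows of 13968 protein-coding genes, 15.9% held either pair (9.4% GAANNTTC, 7.7% TTCNNGAA) and 0.43% held 3 alternating units. These shares count the first start of each gene, whose window at Hsc70-4 holds the single pair and not the run of 3 units. A match describes the letters and was not tested for binding.

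The coding sequence of Hsp68 was 77.8 to 78.3% identical to those of the Hsp70 copies in aligned bases, 73.3% to Hsc70-4, 72.5% to Hsc70-2, 70.7% to Hsc70-1, 68.9% to Hsc70-3, 62.8% to Hsc70-5 and 62.7% to Hsc70Cb. Its longest exact run shared with an Hsp70 copy was 33 bases. The longest runs between other pairs were 36 bases for Hsc70-2 with the Hsp70Ba, Hsp70Bb, Hsp70Bbb and Hsp70Bc copies and 35 bases for Hsc70-3 with Hsc70-4. How reads with several matches were counted is not given in the sources used here, so the low counts of Hsc70-2 are uncertain.

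In basal control brains, the order of the members per kb of exon was set by Hsc70-4, with a mean level of 430 CPM per kb. Hsc70-3 followed at 89.9 CPM per kb and Hsc70-5 at 87.4 CPM per kb, and the libraries of these neighbours overlapped. The levels of Hsc70Cb (29.8 CPM per kb), Hsp68 (3.62 CPM per kb), Hsc70-1 (1.77 CPM per kb) and Hsc70-2 (0.026 CPM per kb) lay below, with no overlap between neighbours. After HS, Hsp68 came first in every group, at 3440 CPM per kb in control brains, ahead of Hsc70-4 at 791 CPM per kb. Hsp68 made up 74.6 to 78.6% of the summed level per kb of the 7 members in control HS brains, against 0.409 to 0.722% in basal control brains. Hsc70-2 had 0 to 9 reads in the 47 brain libraries and 0 reads in 14 of them, where a count of 0 allows a level of up to 0.0638 to 0.147 CPM by library (3 counts, counting error only).

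**Figure D1:**
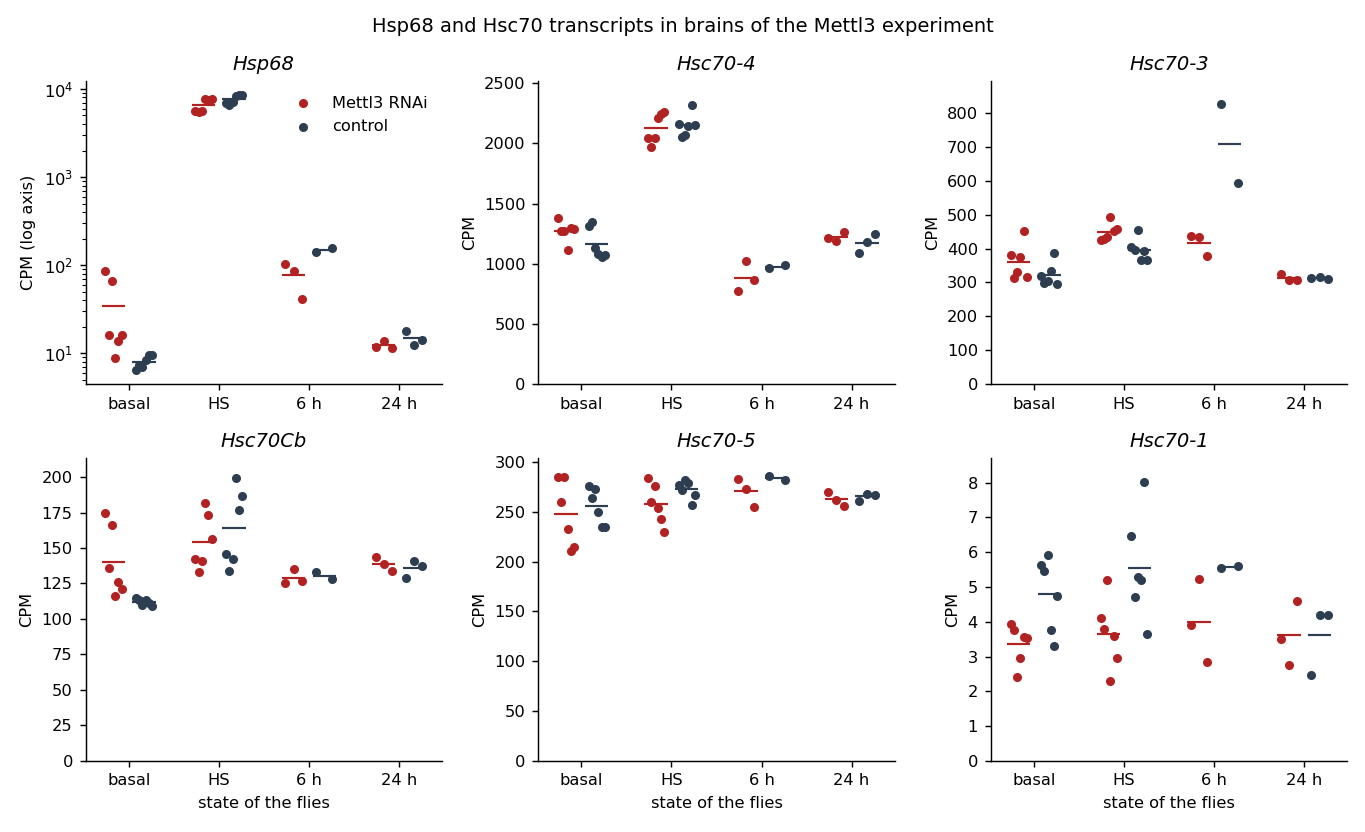
Normalised level (CPM) of 6 members in brains of the Mettl3 experiment by state (basal, HS, 6 h and 24 h after HS), with Mettl3 RNAi in red to the left of control in dark blue. Each point is a library and each bar a mean, and the Hsp68 axis is logarithmic. Hsp68 lies between 5450 and 8580 CPM in all 12 HS libraries, and Hsc70-3 is at 825 and 592 CPM in the control libraries 6 h after HS.

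The first comparison asks which members answer HS in the control brain. Hsp68 had 6920, 6540, 7170, 8400, 8580 and 8470 CPM in the 6 HS brains, against 6.41, 7.45, 7.03, 8.31, 9.7 and 9.56 CPM in basal brains. The lowest HS library is far above the highest basal one. The log2 fold change was 9.91 (SE 0.17, 963-fold), with an adjusted p of 1.43e-13. Adjusted p-values in the text come from the quasi-likelihood test of edgeR and were adjusted over all genes tested by the method of Benjamini and Hochberg. Hsp68 was 1 of 4 members called higher at an adjusted p under 0.05, of 6 tested, where 19.7% of all 10049 genes tested were called higher and 29.2% lower. No member was called lower, and Hsc70-2 did not reach the filter on low counts.

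Hsc70-4 had 2050 to 2320 CPM in control HS brains (median 2140), against 1060 to 1350 CPM in basal brains (median 1110). The groups did not overlap, and the log2 fold change was 0.90 (SE 0.07, adjusted p 9.56e-07 in edgeR). The exchange factor Hsc70Cb had 146, 134, 142, 199, 177 and 187 CPM in HS brains, against 115, 113, 110, 113, 111 and 109 CPM in basal brains. Its basal libraries were within a few CPM of each other while its HS libraries fell into 2 levels, lower in replicates 1 to 3 than in replicates 4 to 6. These replicates were taken as 2 sequencing sets from library depth alone, and no label names a batch. Its log2 fold change was 0.58 (SE 0.10, adjusted p 2.66e-04 in edgeR), and it was no longer called when counts were scaled by library size alone (0.18, adjusted p 0.0927).

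Hsc70-3, the ER form, had 404, 395, 454, 366, 392 and 366 CPM in control HS brains, against 319, 298, 304, 334, 386 and 295 CPM in basal brains. The groups overlapped only through basal library 5, and the log2 fold change of 0.32 (SE 0.07, adjusted p 0.00299 in edgeR) turned to -0.08 with library size alone. In replicates 4 to 6 alone it was not called (0.16, adjusted p 0.206). Heat shock protein genes took 7.28 to 9.33% of all counts in control HS brains, against 0.0746 to 0.109% in basal brains. Their part in the difference between the scalings was not tested. Scaling by library size alone moved the median of all genes by -0.40 in control and -0.35 in Mettl3 RNAi brains, by -0.32 and -0.41 in control and Ythdc RNAi brains of the Ythdc experiment, by -0.24 and -0.22 in control and Mettl3 RNAi heads, and by 0.12 at 6 h. Changes are given relative to the trimmed mean of all genes (TMM).

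Hsc70-5 (FBgn0001220), the mitochondrial form, is on the minus strand of chromosome arm 2R at 14252598 to 14256192. It had 277, 272, 282, 279, 257 and 267 CPM in control HS brains, against 276, 264, 273, 250, 235 and 235 CPM in basal brains. Among replicates 1 to 3 the HS and basal libraries overlapped, and among replicates 4 to 6 each HS library was above each basal one. The fold change was 0.12 on the log2 scale (SE 0.05, adjusted p 0.0763 in edgeR), or -0.28 with library size alone. Hsc70-5 was called by DESeq2 (0.17, adjusted p 0.00169) and with the sequencing set as a term (0.12, adjusted p 0.0264 in edgeR). With the replicate number as a block it was also called (0.12, adjusted p 0.0422 in edgeR), but the labels do not say that HS and basal brains of the same number are pairs. Hsc70-1 had 3.65 to 8.02 CPM after HS and 3.31 to 5.92 CPM in basal control brains, with a log2 fold change of 0.24 (SE 0.19, adjusted p 0.34 in edgeR), or -0.17 with library size alone.

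Partners of these chaperones are given by list, beside 19.7% of all genes called higher and 29.2% lower. All 6 Hsp70 copies were called higher, with a median log2 fold change of 11.62. Of 16 cytosolic partners, 11 were called higher and 2 lower, with a list median of 0.22 against -0.02 over all genes, led by the J-domain gene DnaJ-1 (4.98), the Hsp90 gene Hsp83 (4.87) and the BAG-domain gene stv (3.85). Of 14 ER chaperones and ER stress genes, 1 was called higher and 6 lower (median -0.13), among them the ER J-domain gene P58IPK (-0.55) and the calreticulin gene Calr (-0.34). Of 8 mitochondrial partners tested, 1 was called higher and 3 lower (median -0.05), with the GrpE-type exchange factor Roe1 at -0.73 and the J-domain gene Hsc20 at -0.43.

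In Mettl3 RNAi brains, 3 of 6 members tested were called higher after HS, where 18.3% of all genes tested were called higher and 28.2% lower. Hsp68 had 5650, 5450, 5610, 7710, 7590 and 7660 CPM after HS, against 86.9, 16.3, 66.4, 8.79, 13.8 and 16 CPM in basal brains. All HS libraries were far above all basal ones, and the log2 fold change was 7.59 (SE 0.68, adjusted p 3.68e-06 in edgeR), or 8.92 (SE 0.27) without basal libraries 1 and 3. Hsc70-4 had 1970 to 2260 CPM after HS and 1110 to 1380 CPM in basal brains (log2 fold change 0.76, SE 0.06, adjusted p 1.30e-06 in edgeR). Hsc70-3 had 426 to 493 CPM after HS and 313 to 452 CPM in basal brains, and its log2 fold change of 0.33 (SE 0.09, adjusted p 0.00676 in edgeR) became -0.02 with library size alone and was not called in replicates 4 to 6 alone (0.32, adjusted p 0.093). The HS and basal libraries of Hsc70-3 overlapped, those of Hsc70-4 did not.

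Hsc70Cb was not called in Mettl3 RNAi brains (log2 fold change 0.16, SE 0.12, adjusted p 0.298 in edgeR, and -0.19 with library size alone). It had 142, 133, 141, 182, 173 and 156 CPM after HS, against 175, 136, 166, 116, 126 and 121 CPM in basal brains, the high values being basal libraries 1 and 3, which also stood out for Hsp68. Without these 2 libraries the log2 fold change was 0.31 (adjusted p 0.0174). In replicates 4 to 6 alone it was called (0.51, adjusted p 0.00209), and in replicates 1 to 3 alone it was -0.20 (adjusted p 0.138). Of the partner lists, all 6 Hsp70 copies were called higher, 3 of 16 cytosolic partners were higher and 3 lower, 2 of 14 ER genes were higher and 3 lower, and 2 of 8 mitochondrial partners were higher and 3 lower.

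The HS response of Hsp68 in Mettl3 RNAi minus that in control brains was -2.31 on the log2 scale (SE 0.56) and was not called (adjusted p 0.278 in edgeR). The share of genes called for this difference was 0% (0 of 10503, with 627 at an unadjusted p under 0.05 and 10 called by DESeq2). The size moved with the basal libraries: without basal Mettl3 RNAi brains 1 and 3 the Hsp68 difference was -0.98 (adjusted p 0.532), in replicates 1 to 3 alone it was -3.31 and in replicates 4 to 6 alone -0.63. For the other 5 members tested it lay between -0.41 and 0.02.

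**Figure D2:**
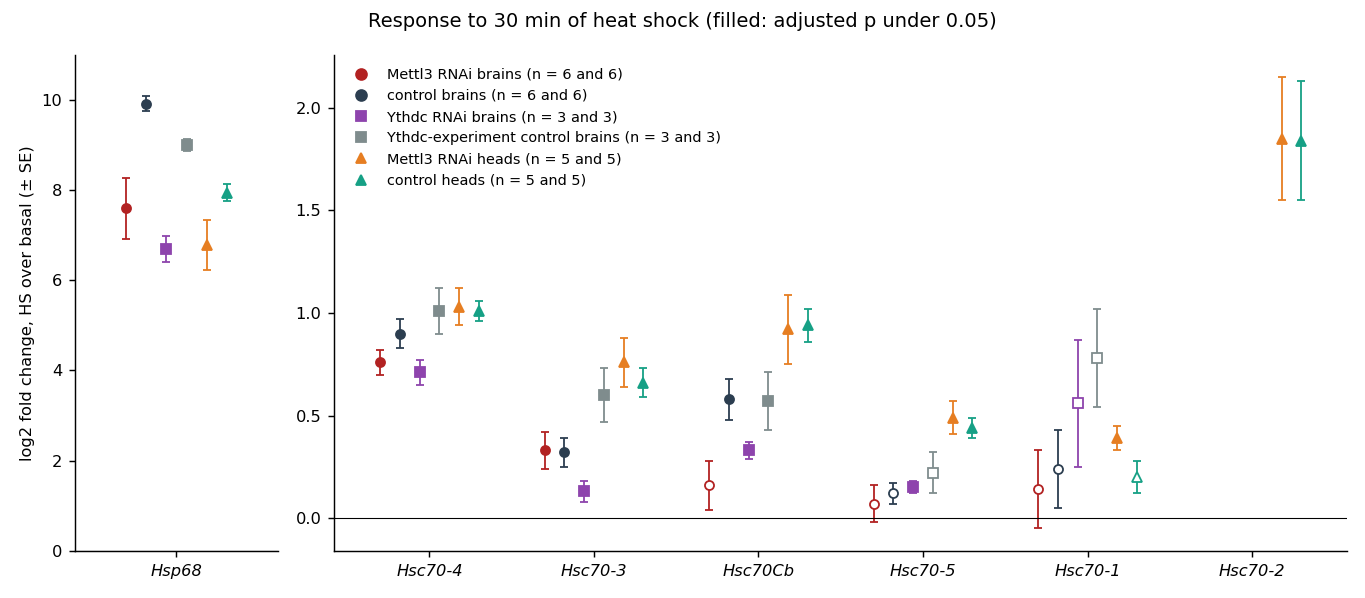
Log2 fold change after 30 min HS over basal for each member (points, with 1 SE) in 6 pairs of groups, with RNAi drawn left of its control; filled symbols had an adjusted p under 0.05. Hsp68 is drawn on an axis of its own and lies between 6.70 and 9.91, and Hsc70-4 lies between 0.71 and 1.03. With library size alone in place of TMM, the brain values of Hsc70-3, Hsc70-5, Hsc70Cb and Hsc70-1 fall below 0 in at least 1 pair of groups each.

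During recovery of control brains Hsp68 stayed above its basal level, and the ER form Hsc70-3 was highest at 6 h. Hsp68 had 142 and 157 CPM at 6 h, against 6.41 to 7.45 CPM in basal replicates 1 to 3, the set with which the recovery samples were compared. The log2 fold change was 4.45 (SE 0.11, adjusted p 1.07e-06 in edgeR), 21.9-fold. The 6 Hsp70 copies summed to 484 and 499 CPM at 6 h, or 3.17 to 3.41 times the Hsp68 level, where the ratio was 9.61 to 10 directly after HS. Hsp68 and Hsc70-3 were the 2 of 6 members tested that were called higher, where 3.86% of all genes were.

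Hsc70-3 had 825 and 592 CPM in control brains 6 h after HS, against 319, 298 and 304 CPM in basal replicates 1 to 3. Both 6 h libraries lie above every other brain library of either genotype at any time, and they differ from each other by more than the basal libraries do. The log2 fold change was 1.24 (SE 0.15, adjusted p 0.00667 in edgeR). Of the ER list, 6 of 14 genes were called higher and none lower (median 0.37 against 0.03 over all genes): the Hsp90-type Gp93 (1.33), P58IPK (1.13), Calr (0.71), the disulfide isomerase gene Pdi (0.49), CG2918 (0.49) and the translocon gene Sec63 (0.41). The stress sensors and transcription factors of the list, Ire1 (0.10), PEK (0.15), Atf6 (-0.07), Xbp1 (-0.08) and crc (-0.15), were not called. Outside the ER list, all 6 Hsp70 copies were called higher, 1 of 16 cytosolic partners (stv, 0.55) and 0 of 8 mitochondrial partners.

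The cytosolic Hsc70-4 had 961 and 986 CPM at 6 h, against 1310, 1350 and 1130 CPM in basal control replicates 1 to 3, below all 3 of them but not called (-0.34, SE 0.12, adjusted p 0.152 in edgeR). By DESeq2 Hsc70-4 was called lower (-0.37, adjusted p 0.0164). Hsc70Cb, Hsc70-5 and Hsc70-1 had log2 fold changes of 0.24, 0.10 and 0.01. Hsc70Cb was called higher in edgeR against all 6 basal replicates (0.25, adjusted p 0.0326) and with library size alone (0.36, adjusted p 0.0385). At 24 h, Hsp68 had 18.1, 12.5 and 14.0 CPM in control brains, still above each basal replicate, with a log2 fold change of 1.11 (SE 0.15, adjusted p 0.0382 in edgeR). It was the only member called higher, where 0.0409% of genes were, and the call rested on few libraries: it was lost in 5 of 6 fits that left out 1 library and against all 6 basal replicates (0.88, adjusted p 0.197). Hsc70-3 was at 313, 317 and 311 CPM at 24 h, level with its basal libraries (0.05, SE 0.06, adjusted p 0.701 in edgeR).

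In Mettl3 RNAi brains, no member was called at 6 h, where 2.04% of genes were called in either direction, but the calls depended on the basal libraries. Hsp68 had 103, 85.5 and 41.8 CPM at 6 h, against 86.9, 16.3 and 66.4 CPM in basal replicates 1 to 3, 2 of which are the libraries that stood apart, and the groups overlapped (0.44, SE 0.62, adjusted p 0.667 in edgeR). Against basal replicates 2, 4, 5 and 6 in their place, which leaves out both high libraries and spans both sequencing sets, Hsp68 was called higher (2.50, SE 0.33, adjusted p 0.00782). Hsc70-4 had 773, 1020 and 862 CPM at 6 h, against 1380, 1270 and 1270 CPM in basal replicates 1 to 3. It was below all 3 of them without a call (-0.56, SE 0.11, adjusted p 0.0669 in edgeR), and was called lower by DESeq2 (adjusted p 8.08e-05), against all 6 basal replicates (-0.51, adjusted p 0.0329) and against replicates 2, 4, 5 and 6 (-0.48, adjusted p 0.0341). Hsc70-3 had 436, 435 and 377 CPM at 6 h, against 382, 313 and 330 CPM in basal replicates (0.28, SE 0.09, adjusted p 0.134 in edgeR). At 24 h no member was called either, in a comparison that called 0% of 9870 genes (2047 at an unadjusted p under 0.05, and 675 by DESeq2). Hsp68 was then at 11.9, 13.8 and 11.6 CPM in Mettl3 RNAi brains, below each basal library it was compared with (-2.19, SE 0.58, adjusted p 0.201 in edgeR). Against basal replicates 2, 4, 5 and 6, without the high libraries, the value was -0.14 (SE 0.21, adjusted p 0.724). It was called by DESeq2 against replicates 1 to 3 (-2.19, adjusted p 0.0216) and by edgeR against the 2 high libraries alone (-2.63, adjusted p 9.54e-05), but not without replicate 1 (-1.74, adjusted p 0.429). Of the partner lists, Droj2, a cytosolic J-domain gene, was lower at 6 h (-0.54, adjusted p 0.0449 in edgeR), and no other listed gene was called at 6 h or 24 h.

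**Figure D3:**
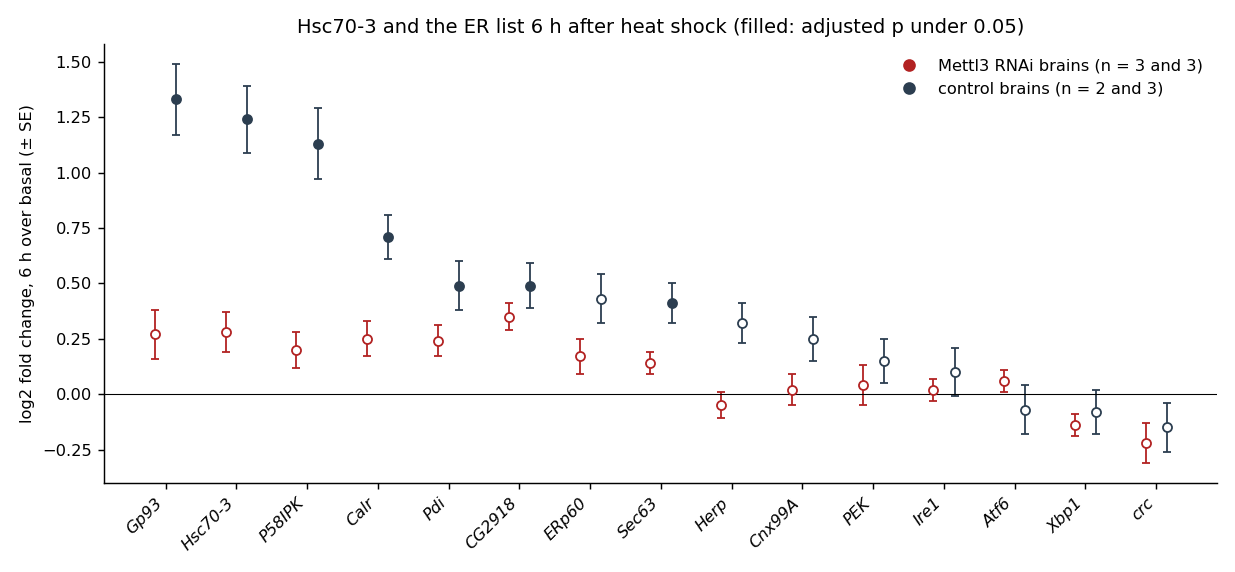
Log2 fold change at 6 h after HS over basal replicates 1 to 3 (points, with 1 SE) for Hsc70-3 and the 14 genes of the ER list, in Mettl3 RNAi (red, left) and control brains (dark blue, right); filled symbols had an adjusted p under 0.05. In control brains Gp93, Hsc70-3 and P58IPK lie at 1.33, 1.24 and 1.13, and in Mettl3 RNAi brains at 0.27, 0.28 and 0.20.

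The genotypes were then compared within each state. In basal brains 0 of 6 members tested were called, where 2.19% of genes were called in either direction. Hsp68 was above the control range in 5 of 6 Mettl3 RNAi libraries, with a log2 fold change of 2.10 (SE 0.54, adjusted p 0.0729 in edgeR). By DESeq2 its adjusted p was 0.00546, without Mettl3 RNAi replicates 1 and 3 the log2 fold change was 0.77 (adjusted p 0.068), and without Mettl3 RNAi replicate 4 it was called (adjusted p 0.0411). In replicates 1 to 3 alone the fold change was 3.04 and in replicates 4 to 6 alone 0.48, so that its size differed between the sequencing sets. One Hsp70 copy, Hsp70Aa, was called higher (4.29, SE 0.98, adjusted p 0.0431 in edgeR, but 1.75 and adjusted p 0.0761 without replicates 1 and 3), and no cytosolic, ER or mitochondrial partner. The other members lay between -0.52 (Hsc70-1) and 0.33 (Hsc70Cb).

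After HS, 0 of 6 members were called between Mettl3 RNAi and control brains, where 6.32% of genes were. Hsp68 did not overlap between genotypes within either set, at 5450 to 5650 CPM against 6540 to 7170 CPM in control among replicates 1 to 3, and at 7590 to 7710 CPM against 8400 to 8580 CPM among replicates 4 to 6. The sets lay further apart than the genotypes did within a set, and over both sets the log2 fold change between genotypes was -0.23 (SE 0.11, adjusted p 0.281 in edgeR). With the sequencing set as a term it was called at the same size (-0.23, SE 0.03, adjusted p 0.00133). In replicates 1 to 3 alone the value was -0.29 (adjusted p 0.00513). Hsc70-3 had a log2 fold change of 0.17 and was not called (SE 0.05, adjusted p 0.085 in edgeR). It was called by DESeq2 (0.17, adjusted p 0.042) and with library size alone (0.24, adjusted p 0.0335 in edgeR). In edgeR it was also called in replicates 4 to 6 alone (0.31, adjusted p 0.0499) and without control HS replicate 3 (0.21, adjusted p 0.0234). Calr of the ER list was called higher (0.33) and the cytosolic partners Tpr2 (-0.19) and DnaJ-H (-0.14) were called lower.

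At 6 h Hsc70-3 was the 1 member of 6 called between genotypes, and it was lower in Mettl3 RNAi brains, where 1.6% of genes were called lower. It had 436, 435 and 377 CPM in Mettl3 RNAi, against 825 and 592 CPM in control, a log2 fold change of -0.77 (SE 0.14, adjusted p 0.0454 in edgeR). The groups did not overlap, but with 2 control libraries the call was lost in 4 of 5 fits that left out 1 library, and without control replicate 1 the value was -0.51 (adjusted p 0.135). Of the ER list, 5 of 14 were called lower and none higher (median -0.32 against -0.01 over all genes): Gp93 (-0.95), P58IPK (-0.88), Calr (-0.46), ERp60 (-0.44) and Sec63 (-0.34). Of the Hsp70 copies, 5 of 6 were called lower (median -0.75), and no cytosolic or mitochondrial partner was called. Hsp68 had 103, 85.5 and 41.8 CPM in Mettl3 RNAi, against 142 and 157 CPM in control, a fold change of -0.96 on the log2 scale (SE 0.33, adjusted p 0.198 in edgeR). The muscle markers summed to 139 to 283 CPM in the Mettl3 RNAi and 79.3 to 101 CPM in the control libraries at 6 h, and their part in these values was not tested. At 24 h, 0 of 6 members were called, where 9.19% of genes were, and Hsp68 was at -0.25.

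In the Ythdc experiment the basal level of Hsp68 differed between genotypes. It had 64.1, 44.2 and 87.5 CPM in basal Ythdc RNAi brains, against 14.8, 13.5 and 14.1 CPM in control brains. The groups lay well apart (log2 fold change 2.19, SE 0.25, adjusted p 0.0131 in edgeR), and without control replicate 9 the adjusted p was 0.06. It was the 1 member of 6 called higher, where 0.774% of genes were. All 6 Hsp70 copies were called higher as well (median 3.26), summing to 616, 547 and 940 CPM in Ythdc RNAi and 114 to 149 CPM in control, with Hsp83 (0.65) and the Hsp90 co-chaperone gene Stip1 (0.36), and none of the ER or mitochondrial partners. The muscle markers summed to 38 to 258 CPM in Ythdc RNAi and 67.7 to 76.8 CPM in control basal brains, and their part in the Hsp68 level was not tested.

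**Figure D4:**
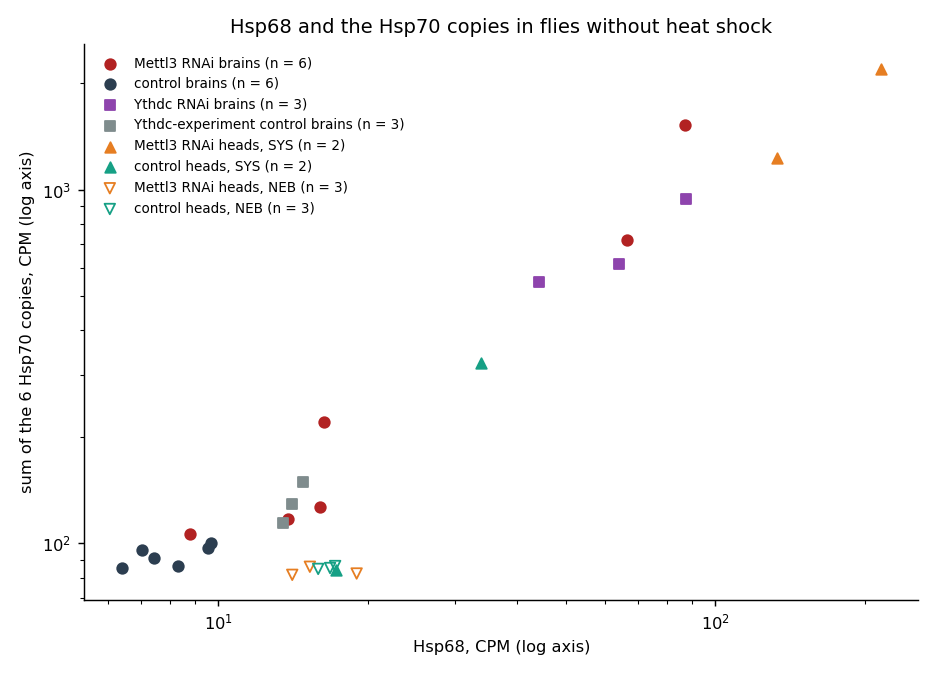
Level of Hsp68 (x axis, CPM, logarithmic) and summed level of the 6 Hsp70 copies (y axis, CPM, logarithmic) in each basal brain and head input library, coloured by group. Basal Mettl3 RNAi brains 1 and 3, the 3 Ythdc RNAi brains and both Mettl3 RNAi SYS heads have at least 44.2 CPM of Hsp68 and 547 CPM of the copies, and each control library has at most 33.8 and 323 CPM.

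After HS, Hsp68 was at 6860, 6730 and 7120 CPM in Ythdc RNAi brains and 7140, 7020 and 7240 CPM in control. Its log2 fold change between them was -0.07 (SE 0.06, adjusted p 0.535 in edgeR), and 0 of 6 members were called, where 5.3% of genes were. The response of Hsp68 to HS was 6.70 in Ythdc RNAi (SE 0.29, adjusted p 3.64e-05 in edgeR) and 8.99 in control (SE 0.13, adjusted p 1.81e-07 in edgeR). The difference of -2.25 (SE 0.27, adjusted p 0.00397 in edgeR) was called, as were those of 5 of the 6 Hsp70 copies (median -3.20) and Hsp83 (-0.62), where 0.168% of genes were called lower. It was the 1 member so called. Its levels differed in basal brains, while those after HS lay within 6730 to 7240 CPM in both genotypes.

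In Ythdc RNAi brains 5 of 6 members were called higher after HS, where 25.8% of genes were, and in its controls 4 of 6, where 5.22% were. Hsc70-4 had 2100, 2150 and 2110 CPM after HS, against 1380, 1170 and 1260 CPM in basal Ythdc RNAi brains (0.71, SE 0.06, adjusted p 2.01e-04 in edgeR), and 2240, 2070 and 2130 CPM against 1150, 975 and 1080 CPM in control brains (1.01, SE 0.11, adjusted p 0.00224 in edgeR). Hsc70-3 was at 358, 355 and 389 CPM after HS, against 341, 334 and 316 CPM in basal Ythdc RNAi brains, with a log2 fold change of 0.13 (adjusted p 0.0435 in edgeR) that became -0.28 with library size alone. That call was lost in 5 of 6 fits that left out 1 library and without the filter on low counts (0.10, adjusted p 0.149). In control brains it was at 365, 390 and 388 CPM, against 270, 212 and 276 CPM (0.60, SE 0.13, adjusted p 0.0197 in edgeR). Hsc70Cb rose by 0.33 in Ythdc RNAi (-0.08 with library size alone) and by 0.57 in control. In control, neither Hsc70-3 (0.27, adjusted p 0.19) nor Hsc70Cb (0.24, adjusted p 0.273) was called with library size alone. Both control calls were also lost in edgeR when HS replicate 7, 8 or 9 was left out. Adjusted p was then 0.0669, 0.0912 and 0.0795 for Hsc70-3 and 0.107, 0.0957 and 0.104 for Hsc70Cb. The call of Hsc70Cb was lost without basal replicate 9 as well (adjusted p 0.0624 in edgeR). Hsc70-5 rose by 0.15 in Ythdc RNAi (-0.26 with library size alone) and had 0.22 in control without a call (adjusted p 0.142 in edgeR, and -0.10 with library size alone). Hsc70-1 was not called in either.

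In inputs of whole heads, 7 of the 7 members were called higher after HS in Mettl3 RNAi, where 18.3% of genes were, and 6 in control, where 15.6% were. Hsp68 had 4440, 4240 and 4420 CPM in the NEB and 5540 and 5400 CPM in the SYS inputs of control HS heads, against 15.9, 17.2, 16.8, 17.3 and 33.8 CPM in basal heads (7.94, SE 0.19, adjusted p 6.95e-10 in edgeR). In Mettl3 RNAi heads it had 4080, 3830, 3740, 6400 and 5280 CPM after HS, against 15.3, 14.1, 19.0, 133 and 215 CPM in basal heads (6.78, SE 0.55, adjusted p 9.14e-06 in edgeR), in the same order of pools, or 7.92 (SE 0.13) with NEB inputs alone. Every HS pool was far above every basal pool in both genotypes.

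Hsc70-4 rose in heads, to 2290 to 2390 CPM in HS control heads against 1110 to 1270 CPM in basal ones (1.01, SE 0.05, adjusted p 4.38e-07 in edgeR). Hsc70Cb was at 222, 196, 215, 321 and 304 CPM in HS control heads, against 128, 118, 126, 133 and 147 CPM in basal heads (0.94, SE 0.08, adjusted p 1.61e-05 in edgeR). Hsc70-3 was at 541, 464, 561, 927 and 1000 CPM, against 361, 358, 364, 560 and 544 CPM (0.66, SE 0.07, adjusted p 8.90e-05 in edgeR). For both genes the SYS pools, listed last and scaled apart from the NEB pools, had higher values after HS. Within each antibody experiment HS was above basal. Hsc70-5 was at 254, 248, 257, 317 and 313 CPM after HS, against 202, 194, 191, 232 and 215 CPM in basal control heads (0.44, SE 0.05, adjusted p 1.56e-04 in edgeR), and 242 to 394 CPM against 193 to 224 CPM in Mettl3 RNAi heads (0.49). Hsc70-1 was at 32.3 to 46.6 CPM against 28.5 to 41.3 CPM in control heads (0.20, SE 0.08, adjusted p 0.0643 in edgeR, and -0.04 with library size alone) and at 28.9 to 39.8 CPM against 22.6 to 31.4 CPM in Mettl3 RNAi heads (0.39, SE 0.06, adjusted p 7.80e-04 in edgeR).

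Hsc70-2, near 0 in brains, was countable in SYS heads, at 115 and 112 reads after HS, against 27 and 47 reads in basal control inputs. In NEB inputs it had 13, 14 and 13 reads after HS and 8, 11 and 3 reads in basal control heads, where single reads decide the ratio. Its log2 fold change was 1.84 (SE 0.29, adjusted p 7.52e-04 in edgeR) in control and 1.85 (SE 0.30, adjusted p 7.72e-04 in edgeR) in Mettl3 RNAi heads. It shares a run of 36 bases with Hsp70 copies whose sum was 21000 to 27600 CPM in control HS heads, and whether reads of the copies were counted on Hsc70-2 was not tested.

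Partner lists in control heads are set beside 15.6% of all genes called higher and 19.2% lower. All 6 Hsp70 copies were called higher (median 7.84), with 8 of 16 cytosolic partners higher and 1 lower, led by DnaJ-1 (4.54) and stv (4.00). Of the ER list, 5 of 14 were higher and 2 lower, with Gp93 at 0.41 and the transcription factor gene Xbp1 at 0.28. Of the 8 mitochondrial partners, 1 was higher (Hsp60A, the chaperonin gene, 0.27) and 2 were lower. In Mettl3 RNAi heads, where 18.3% of all genes were called higher and 21.2% lower, the counts were 6 Hsp70 copies higher, 8 cytosolic partners higher and 2 lower, 5 ER genes higher and 2 lower, and 1 mitochondrial partner higher and 3 lower.

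Between genotypes, 1 of 7 members was called in basal heads, where 4.03% of genes were, and 0 after HS, where 2.72% were. The 1 was Hsc70-1, at 23.5, 25.2, 22.6, 26.3 and 31.4 CPM in Mettl3 RNAi, against 30.7, 28.5, 29.7, 41.3 and 33.5 CPM in control heads (-0.33, SE 0.07, adjusted p 0.0293 in edgeR). It was below control within each antibody experiment, but the call was lost in 7 of 10 fits that left out 1 pool and within NEB (-0.31, adjusted p 0.0718) or SYS inputs alone (-0.36, adjusted p 0.963). Hsp68 had a log2 fold change of 1.14 in basal heads (SE 0.49, adjusted p 0.255 in edgeR), which was -0.04 in NEB inputs alone and 2.79 in SYS inputs alone. The difference of the HS response between the genotypes was called for 0% of 10822 genes in heads (250 at an unadjusted p under 0.05 and 1 by DESeq2), with Hsp68 at -1.57 (-0.13 in NEB and -2.68 in SYS inputs alone).

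The response of Hsp68 was smaller in control heads than in control brains by 1.98 on the log2 scale (-1.98, SE 0.20, adjusted p 9.48e-06 in edgeR), and -1.84 with NEB and -2.17 with SYS inputs alone. Basal levels were 15.9 to 33.8 CPM in heads and 6.41 to 9.7 CPM in brains, and HS levels were 4240 to 5540 CPM and 6540 to 8580 CPM. Since CPM of heads and brains were scaled separately, these levels do not show which tissue had more Hsp68. Hsc70-5 had the larger response in heads (0.32, SE 0.07, adjusted p 0.00836 in edgeR), which was not called with NEB (0.29, adjusted p 0.0734) or SYS inputs alone (0.39, adjusted p 0.0995). These were 2 of 7 members called, where 4.12% of genes were. All 6 Hsp70 copies were called lower in heads (median -3.67) with Hsp83 (-1.47), and P58IPK (0.44), Calr (0.39) and Roe1 (0.43) were called higher. Muscle markers summed to 1260 to 5390 CPM in heads and 27.3 to 861 CPM in brains, and the tissue, the library kit, the pool size and the sequencing run cannot be told apart here.

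The m6A-IP was compared with its input per pool, as the enrichment of the whole transcript relative to the average gene. With the SYS antibody 3 of 7 members were called higher in the IP of basal control heads: Hsc70-3 (0.72, SE 0.04, adjusted p 4.36e-81 in edgeR), Hsc70Cb (0.62, SE 0.04, adjusted p 3.34e-44) and Hsp68 (0.50, SE 0.07, adjusted p 9.37e-12), where 37.4% of genes were called higher. The log2 ratio of IP to input was 0.74 and 0.77 in the 2 pools for Hsc70-3, 0.66 and 0.65 for Hsc70Cb and 0.64 and 0.45 for Hsp68. Hsc70-4 (-0.05), Hsc70-5 (0.06), Hsc70-1 (-0.10) and Hsc70-2 (-0.19) were not called. These adjusted p-values come from 2 pools with the pool as a block, and without the block Hsp68 was not called (adjusted p 0.369).

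After HS, the same 3 members were called higher in SYS IPs of control heads, where 38.3% of genes were, with Hsc70-3 at 0.75, Hsc70Cb at 0.67 and Hsp68 at 0.14, the last turning to -0.19 with library size alone. In Mettl3 RNAi heads 3 members were called higher in basal conditions, where 34% of genes were, and 3 after HS, where 33.3% were. They were Hsc70-3 (0.66), Hsc70Cb (0.42) and Hsc70-5 (0.15, adjusted p 0.0324 in edgeR) in basal heads and Hsc70-3 (0.69), Hsc70Cb (0.43) and Hsp68 (0.20, or -0.05 with library size alone) after HS. Both basal Mettl3 RNAi SYS IPs were assigned by their titles, since another label names no antibody for them.

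**Figure D5:**
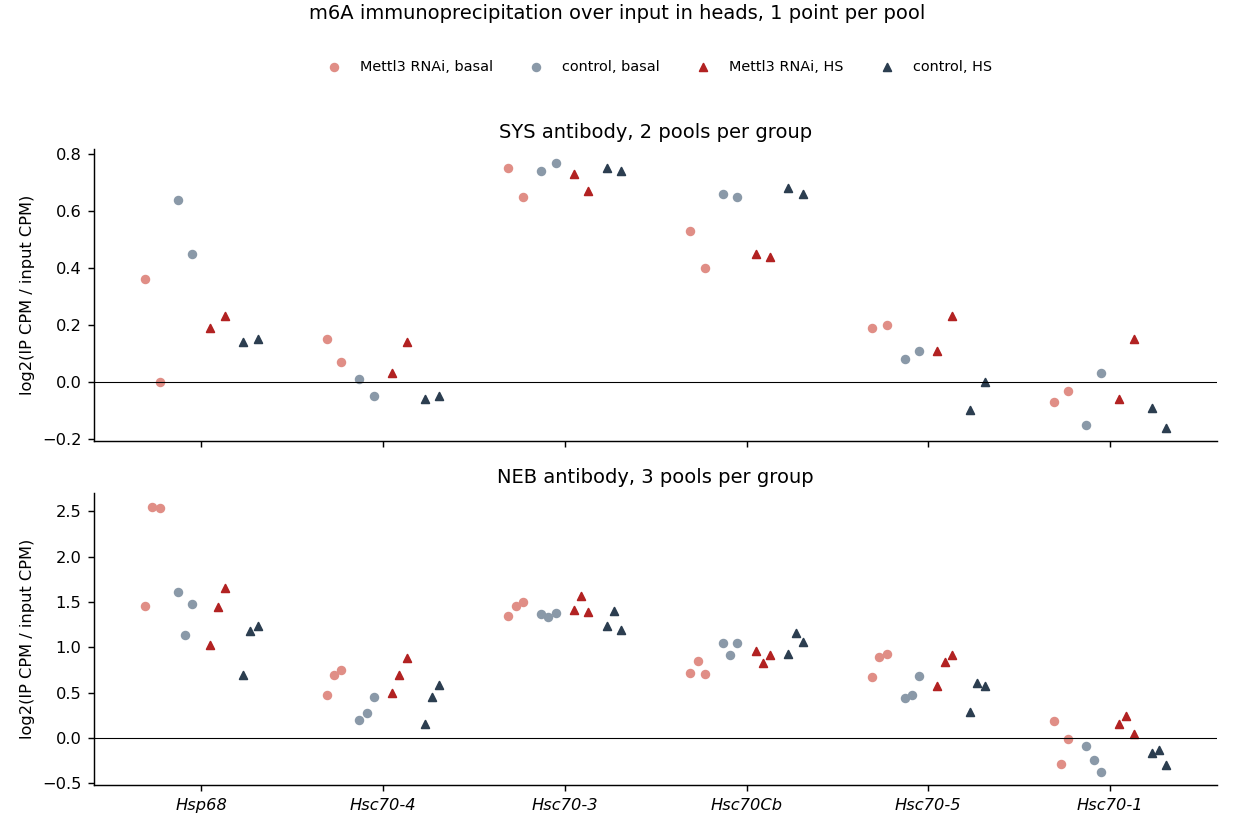
Log2 ratio of m6A-IP CPM to input CPM for 6 members, each point being 1 pool of heads, with the SYS antibody above (2 pools per group) and the NEB antibody below (3 pools per group). Within a state Mettl3 RNAi (red) is left of control (grey and dark blue), and circles are basal and triangles HS. Hsc70-3 lies between 0.65 and 0.77 in all 8 SYS pools, and Hsp68 in basal SYS pools is at 0.36 and 0.00 in Mettl3 RNAi and at 0.64 and 0.45 in control.

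Whether this enrichment depends on Mettl3 was tested as the difference of the IP over input ratio between genotypes. In basal SYS heads Hsp68 was the 1 member of 7 called lower in Mettl3 RNAi (-0.37, SE 0.11, adjusted p 0.04999 in edgeR), where 9.02% of genes were. The log2 ratio in its pools was 0.36 and 0.00 in Mettl3 RNAi, against 0.64 and 0.45 in control, and the call was lost by DESeq2 (adjusted p 0.0878), without the block (adjusted p 0.997) and in 3 of 4 fits that left out 1 pool. The Mettl3 RNAi pools are those in which basal Hsp68 RNA was high (133 and 215 CPM in input), and the part of that level in the ratio was not tested. After HS, 0 of 7 members were called, where 12.2% of genes were, and Hsp68 was at 0.06. Hsc70Cb had -0.20 in basal heads (SE 0.07, adjusted p 0.0881 in edgeR) and -0.24 after HS (SE 0.08, adjusted p 0.0579 in edgeR), and Hsc70-3 had -0.06 in both.

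Between states of control heads, the SYS ratio of Hsp68 was lower after HS by 0.39 on the log2 scale (-0.39, SE 0.09, adjusted p 0.0232 in edgeR), at 0.14 and 0.15 in HS pools, against 0.64 and 0.45 in basal pools. It was the 1 member of 7 called lower, where 0.336% of genes were, and it was not called with all 4 conditions in 1 fit (adjusted p 0.185) or without the block.

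With the NEB antibody, 4 members were called higher in the IP of basal control heads, where 40.2% of genes were, and 5 after HS, where 39% were. Hsp68 was at 1.27 (SE 0.11, adjusted p 2.10e-07 in edgeR) and 0.89, Hsc70-3 at 1.22 and 1.13, Hsc70Cb at 0.86 and 0.90, and Hsc70-5 at 0.39 and 0.34 in basal and HS heads, while Hsc70-1 was lower in the IP at -0.36 and -0.34. The fifth after HS, Hsc70-2 (1.39), rests on 5 to 16 reads per IP. In Mettl3 RNAi heads 6 of 7 members were called higher in basal conditions, where 37.2% of genes were, and 6 after HS, where 36.3% were, with Hsp68 at 2.13 and 1.34, Hsc70-3 at 1.42 after HS and Hsc70Cb at 0.76 and 0.87. Both counts of 6 include Hsc70-2, which had 3 to 9 reads per IP in basal and 2 to 18 in HS Mettl3 RNAi heads. With library size alone the Hsc70Cb value was 0.01 in basal and 0.11 in HS Mettl3 RNAi heads. In control HS heads that scaling gave 0.12 for Hsc70Cb (adjusted p 0.29 in edgeR) and 0.11 for Hsp68 (adjusted p 0.225 in edgeR), and neither was called. It moved the median of all genes by -0.68 to -0.78 in NEB and by -0.21 to -0.34 in SYS heads.

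No difference of the NEB ratio was called for a member in the main edgeR fits, with all pools, TMM, the filter on low counts and the pool as block. Between genotypes 14.3% of genes were called in basal and 14% in HS heads, and between HS and basal control heads 0.3%. Hsp68 had a genotype difference of 0.76 in basal heads (SE 0.26, adjusted p 0.0687 in edgeR), with log2 ratios of 1.46, 2.55 and 2.54 in Mettl3 RNAi and 1.61, 1.14 and 1.48 in control pools. It was called by DESeq2 (0.87, adjusted p 0.0485) and without the filter on low counts (0.76, adjusted p 8.15e-04), and ranged from 0.52 to 1.23 when 1 pool was left out, with a call in 3 of 6 such fits. The 2 high pools had IP totals of 1487212 and 1484624 counts and 100 and 128 reads of Hsp68. The direction is opposite to that of the SYS pools (-0.37), and the antibodies were not tested against each other.

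The most similar profiles over the 12 brain groups were listed among 6042 genes of at least 10 CPM (6043 for Hsc70-5), by the correlation of log2 mean CPM across groups. For Hsp68 they were Hsp27 (Pearson r 0.997), a small heat shock protein gene, Hsp70Aa (0.99) and Hsp70Bbb (0.989). For Hsc70-4 they were crc (0.969), the fly ATF4 gene, DnaJ-1 (0.963) and Hsp83 (0.961), and for Hsc70-3 CG8230 (0.917), Gp93 (0.907) and CG8042 (0.864). For Hsc70Cb they were Ptpmeg (0.953), PIP5K59B (0.944) and CG5004 (0.943), and for Hsc70-5, whose level spans 0.25 on the log2 scale, dve (0.847), asRNA:CR45479 (0.841) and Hsp67Bc (0.796). These values describe 12 group means, which HS separates into clusters, and carry no test.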

How the data were processed

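The files hold raw read counts per gene for 87 libraries. According to the methods, the authors trimmed reads with Trim Galore, aligned them to dm6 with STAR 2.7.3a, removed unmapped and improperly paired reads and deposited the counts of reads in exons per gene (union mode). Use of strand and the treatment of reads with several matches are not given in the sources used here. Samples were grouped by their labels.

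The counts were fitted with edgeR 4.0.16 in R 4.3.3 (TMM scaling, quasi-likelihood test, genes with a minimum count of 10 and a minimum total of 15) in 36 comparisons, with Benjamini-Hochberg adjustment over all genes tested and a threshold of 0.05. Head inputs had the antibody experiment as covariate, IPs had the RNA pool as block, and recovery was compared with basal replicates 1 to 3. The fit was tested on simulated data. Alternatives were DESeq2 1.42.0, other scalings and filters, the replicate block, subsets and leaving out 1 replicate. Leaving out Mettl3 RNAi basal brains 1 and 3, and with them gone comparing recovery with basal replicates 2, 4, 5 and 6, was chosen after seeing the data. Deviations of same-numbered HS and basal brains had correlations of 0.337 to 0.759 in control and 0.152 to 0.692 in Mettl3 RNAi over all 6 pairs. The same number was the best match in 3 of 6 pairs in each genotype. Within replicates 1 to 3 the correlation was -0.06 to 0.0419 in control and -0.254 to 0.177 in Mettl3 RNAi, with 1 of 3 best matches in each. Within replicates 4 to 6 it was -0.0316 to 0.527 (2 of 3 best) in control and 0.243 to 0.646 (3 of 3) in Mettl3 RNAi. Between genotypes, the same number matched best in 1 of 3 basal and 3 of 3 HS pairs within replicates 1 to 3. Within replicates 4 to 6 it did in 3 of 3 basal and 2 of 3 HS pairs. NEB head inputs of the same number deviated together. Recovery, genotype and Ythdc brain samples were not taken as paired.

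Members and gene lists were chosen with earlier results of these data known. Of each list, up to 4 called genes with the largest change and at least 1 CPM were named, and ER genes beside them were named after their values were seen. P-values measure the spread between these samples, which may be technical. Sequences and coordinates come from RefSeq and Ensembl annotation of Release 6, aligned with Biopython 1.88.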

Additional observations from a re-analysis of the deposited data

Results flagged for a closer look

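Of 68 tests of a difference between groups, 5 were called. The HS response of Hsp68 was lower in Ythdc RNAi than in control brains by 2.25 on the log2 scale (-2.25, adjusted p 0.00397 in edgeR). It was lower in control heads than in control brains (-1.98, adjusted p 9.48e-06 in edgeR), and that of Hsc70-5 was higher in heads (0.32, adjusted p 0.00836 in edgeR). The ratio of SYS m6A-IP to input of Hsp68 was lower in basal Mettl3 RNAi than in basal control heads (-0.37, adjusted p 0.04999 in edgeR) and lower in HS than in basal control heads (-0.39, adjusted p 0.0232 in edgeR). None of 24 tests for a sample far from its group was met.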

How the results depend on the processing

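Over 102 results each, 89 kept direction and call with DESeq2, 77 with library size alone, 99 without the filter and 100 without heat shock protein genes in the library size. The causes of the changes below were not tested. With library size alone, HS over basal turned to -0.17 (Hsc70-1), -0.08 (Hsc70-3) and -0.28 (Hsc70-5) in control brains, to -0.20 (Hsc70-1), -0.02 (Hsc70-3), -0.27 (Hsc70-5) and -0.19 (Hsc70Cb) in Mettl3 RNAi brains, to -0.10 (Hsc70-5) in controls of the Ythdc experiment, to -0.28 (Hsc70-3), -0.26 (Hsc70-5) and -0.08 (Hsc70Cb) in Ythdc RNAi brains and to -0.04 (Hsc70-1) in control heads. The SYS IP over input of Hsp68 turned to -0.19 in control HS, -0.08 in Mettl3 RNAi basal and -0.05 in Mettl3 RNAi HS heads. In replicates 1 to 3 alone, HS over basal was -0.03 for Hsc70-1 in control and -0.02 for Hsc70-5 and -0.20 for Hsc70Cb in Mettl3 RNAi brains, and in replicates 4 to 6 alone -0.16 for Hsc70-1 in Mettl3 RNAi. Hsp68 between genotypes was -0.04 in NEB basal and 0.09 in SYS HS inputs alone.

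The number of members called also moved. DESeq2 called 2 at 24 h in control, 2 at 6 h and 1 at 24 h in Mettl3 RNAi, 2 between genotypes in basal and 2 in HS brains, 0 for the basal SYS and 3 for the basal NEB genotype difference. Library size alone called 1 between genotypes in HS brains, 2 after HS in controls of the Ythdc experiment, 4 between heads and brains, 6 in basal and 7 in HS control SYS IPs, 3 in Mettl3 RNAi HS NEB IPs, and 2 each for the HS SYS and the basal and HS NEB genotype differences. Without the filter 5 were called in Mettl3 RNAi basal SYS IPs and 1 for the basal NEB difference, and without heat shock protein genes 0 for the basal SYS difference. With all 6 basal replicates 0 were called at 24 h in control and 1 at 6 h in Mettl3 RNAi, and with basal replicates 2, 4, 5 and 6, chosen after seeing the data, 2 at 6 h in Mettl3 RNAi, where Hsc70Cb turned to 0.05. Between genotypes in HS brains 1 was called with the sequencing set as a term and in replicates 1 to 3, which was Hsp68 in both. In replicates 4 to 6 alone 1 was called, which was Hsc70-3. SYS inputs alone called 1 in control HS heads, 0 between genotypes in basal heads and 1 between heads and brains, and NEB inputs alone 0 and 1 of the last 2. All 4 conditions in 1 fit called 1 for the HS SYS genotype difference and 0 for HS against basal.

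With the replicate block, 58 of 66 results were as before. Beside Hsc70-5 in control HS brains, it called 0 members at 24 h in control (Hsp68 1.09, adjusted p 0.0793), 1 between genotypes in HS brains (Hsp68 -0.23, adjusted p 0.00824) and 0 between genotypes at 6 h (Hsc70-3 -0.68, adjusted p 0.0894). After HS in the Ythdc experiment it lost Hsc70-3 (0.61, adjusted p 0.0619) and Hsc70Cb (0.58, adjusted p 0.0575) and gained Hsc70-1 (0.80, adjusted p 0.0469) in control and lost Hsc70-3 in Ythdc RNAi (0.13, adjusted p 0.0987). Brain samples of the same number share only that number in the labels. Without the pool as block, 0 were called in Mettl3 RNAi HS SYS IPs and for the basal genotype and HS-basal SYS differences, and 1 for the HS NEB genotype difference.

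Leaving out 1 replicate, 716 of 770 values kept their call. Members called ranged from 0 to 1 at 24 h in control, 0 to 2 at 6 h and 0 to 3 at 24 h in Mettl3 RNAi, 0 to 1 between genotypes in basal, HS and 6 h brains, 2 to 5 after HS in controls of the Ythdc experiment, 0 to 2 between Ythdc RNAi and control basal brains, 0 to 1 between genotypes in basal heads, 0 to 2 and 0 to 3 for the basal and HS SYS genotype differences, 0 to 1 for the HS-basal SYS difference and 0 to 3 for the basal NEB difference. The SYS IP over input of Hsp68 in basal Mettl3 RNAi heads ranged from -0.01 to 0.33. Counts of all genes called moved by over 1.5 times in 64 of 228 alternatives, for example 692 at 6 h in control against 1045 with DESeq2 and 0 at 24 h in Mettl3 RNAi against 675.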
